A study of Mus musculus with 8 samples.

Results

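The Smad genes encode the proteins that carry signals of the TGF-beta and BMP growth factors from receptors at the cell surface to the nucleus. The 8 Smad genes were taken from a table of read counts for 56748 mouse genes by their gene names, and all 8 were found and passed the filter on low counts, among 16780 genes tested. RNA was sequenced from 8 whole hearts of mice aged 3 to 4 months, 7 days after transverse aortic constriction, an operation that narrows the aortic arch and loads the left ventricle with pressure. Mice of both sexes were used. The 4 hearts labelled CMS7KO were cardiomyocyte-specific Smad7 knockouts, in which Cre recombinase under the promoter of alpha myosin heavy chain excises Smad7 in cardiomyocytes. The 4 control hearts, labelled ACRE, carried the same Cre transgene and underwent the same operation. No heart without constriction and none without Cre was analysed here, and the labels give the strain as C56BL. The labels state that hearts were left out when the flow velocity in the right carotid artery was under 3 or over 25 times that in the left. Nothing in the labels states litters or surgery days. The p-values weigh a difference against the spread between these 8 hearts and cannot account for shared litters or days.

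Signalling runs from ligand to receptor to Smad. Receptors for TGF-beta and activin phosphorylate Smad2 and Smad3, while receptors for BMP phosphorylate Smad1, Smad5 and Smad9. Phosphorylated receptor Smads bind Smad4, the common partner, and enter the nucleus to regulate genes. Smad6 and Smad7 are inhibitory Smads: Smad7 blocks receptors of both branches, Smad6 acts mainly on the BMP branch, and both are themselves induced by the signals that they restrain. In the pressure-loaded heart the Smad2 and Smad3 branch is known for its part in fibrosis.

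Receptor Smads differ from the other members in the tail that the receptor kinase phosphorylates. The last 30 coding bases, stop codon included, are shown for the members whose sequence is printed here, read from GENCODE release 21 transcripts on GRCm38. Capitals mark serine codons among the last 4 codons before the stop.
Smad1, minus strand, chr8:79339649-79339678: ccccacaatcctattTCATCCgtgTCTtaa
Smad3, minus strand, chr9:63650262-63650291: ccgagcatccgctgtTCCAGTgtgTCTtag
Smad5, plus strand, chr13:56737449-56737478: ccgctgaaccccattTCTTCTgttTCAtag
Smad9, plus strand, chr3:54797472-54797501: ccacacaaccctatcTCTTCAgtgTCTtaa
Smad6, minus strand, chr9:63953524-63953553: ctggagatcctactcaacaaccacagatag
In the 4 receptor Smads shown, 3 of the last 4 codons encode serine, in the order serine, serine, another residue, serine, and the same count held for Smad2. Smad6 and Smad4 had 0 such codons and Smad7 had 1. The reading frames held 465 codons for Smad1, 425 for Smad3, 465 for Smad5, 430 for Smad9 and 495 for Smad6.

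Promoter windows of 5 of the 8 members, from 250 bases before to 50 after a gene's start, were taken from RefSeq on GRCm38.p6. The Smad6 window is shown because Smad6 had the smallest p between the genotypes. Capitals mark GTCTAGAC, a palindrome known as a binding element of Smad3 and Smad4.
Smad6, minus strand, chr9:64022010-64022309: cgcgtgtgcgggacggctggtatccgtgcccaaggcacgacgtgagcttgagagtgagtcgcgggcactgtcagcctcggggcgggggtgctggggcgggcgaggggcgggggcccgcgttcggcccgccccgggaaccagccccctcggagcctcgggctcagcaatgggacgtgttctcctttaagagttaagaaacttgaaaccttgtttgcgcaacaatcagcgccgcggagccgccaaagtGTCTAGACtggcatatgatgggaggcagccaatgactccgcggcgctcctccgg
The palindrome begins 4 bases before the annotated start. It occurs in 70 of 32851 promoter windows of the same length (0.213%), and in no window of Smad1, Smad3, Smad5 or Smad9. The GC-rich element GGCGCC, associated with Smads of the BMP branch, occurs in 11.9% of windows, among them the window of Smad9 and the overlapping windows of 2 Smad5 starts, which share 1 site. CAGACA (6913 of 32851 windows) and GTCTGTCT (1.88%) were in none of the members' 7 windows. Both strands were searched, none of the 4 motifs contains another although GTCTAGAC and GTCTGTCT share their first 4 letters, and a match of letters does not show binding.

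Libraries held 12920435 to 17199600 reads in genes, and mitochondrially encoded genes took 16.4% to 23.5% of them. On the first principal component (37.5% of the variance) ACRE 2 and ACRE 4 scored 63.6 and 76.4, against -48.0 to -11.3 for the other 6 libraries. The labels give replicates 1 and 2 of each genotype as male and replicates 3 and 4 as female. Only CMS7KO 4 and ACRE 4 held many reads of Xist, 11204 and 3752, and both had 0 reads of the Y-linked gene Ddx3y. Libraries CMS7KO 3 and ACRE 3 went against their female label, with 9 and 5 reads of Xist and 1332 and 1418 reads of Ddx3y. For the log2 fold changes of the Smad genes and of the genes named from the lists below, and for the list medians, the value without these 2 libraries, or without ACRE 2 and 4, is given where it moved by over 1.5 times or turned in sign. The fit without ACRE 2 and 4 keeps 4 CMS7KO hearts and only 2 controls, ACRE 1 and 3. Both controls had few reads of Xist (6 and 5) and many of Ddx3y (1381 and 1418), while CMS7KO 4 stayed in. Genotype and sex by these transcripts are therefore not balanced in that fit. Of 12 cardiomyocyte markers, 0 were at 0 reads in any library and 11 had a lower mean in CMS7KO. Their median log2 fold change was -0.37, and -0.01 with 6 of 12 lower without ACRE 2 and 4. Their summed level was 32528 to 50167 CPM (read counts scaled to a common library size) in CMS7KO and 44610 to 96390 CPM in ACRE. In RNA of whole tissue, fewer cells of a type and less RNA per cell cannot be told apart.

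Smad7, the targeted gene, did not have a lower mean level in the libraries labelled CMS7KO. The 4 CMS7KO hearts, replicates 1 to 4, stood at 30.9, 41.9, 38.9 and 43.1 CPM, against 34.6, 34.5, 32.7 and 23.9 CPM in the 4 ACRE hearts. CMS7KO 1 lay below 3 ACRE hearts, so the groups overlapped, and ACRE 4 was the lowest of all. The fold of 1.23 had a 95% interval of 0.939 to 1.62 (edgeR adjusted p = 0.415). An exact permutation test of the mean log2 CPM, without the sex label, gave p = 0.114 (two-sided, 70 assignments, smallest possible 0.0286). Leaving out single hearts gave log2 fold changes of 0.16 to 0.43, around 0.30 with all hearts. The lowest was without ACRE 4, and without ACRE 2 and 4 the value was 0.20 (edgeR adjusted p = 0.712). Reads were counted over the whole gene and over all cell types of the heart. Reads by exon were not analysed here, so the level does not check the genotype labels, and each direction by genotype rests on those labels.

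Smad6, the other inhibitory Smad, had the largest log2 fold change and the smallest p of the 8 members and did not pass the threshold. CMS7KO hearts 1 to 4 stood at 23.7, 21.90, 28.1 and 26.98 CPM, against 17.96, 13.9, 21.92 and 15.3 CPM in ACRE. Only CMS7KO 2 and ACRE 3 overlapped, by less than the counting error of their 422 and 349 reads. The means were 25.2 ± 2.88 CPM in CMS7KO and 17.3 ± 3.503 CPM in ACRE (SD, n = 4 each). The log2 fold change was 0.54 (SE 0.17, edgeR adjusted p = 0.267 over all genes), a 1.45-fold level with a 95% interval of 1.12 to 1.89 that carries no correction for the number of genes. An unadjusted p under 0.05 was found for 15.3% of all genes tested, and for 1 of the 8 members. Without ACRE 2 and 4 the log2 fold change of Smad6 was 0.33 (adjusted p = 0.411), and leaving out single libraries gave 0.43 to 0.64.

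Endothelial cells are a known site of Smad6 expression, and their markers separated the ACRE hearts in a similar way. The summed level of 12 endothelial markers was 2442, 3036, 2922 and 2620 CPM in CMS7KO 1 to 4, against 3269, 1607, 3562 and 2047 CPM in ACRE 1 to 4. ACRE 2 and 4 thus had the lowest endothelial sums and also the lowest Smad6 levels. In the CMS7KO hearts, which all lay between the extremes of ACRE in endothelial sum, Smad6 was at or above the level of ACRE 3, within counting error. Of the 12 endothelial markers 9 had a higher mean in CMS7KO (median log2 fold change 0.07), 0 passed the threshold and 0 were at 0 reads. Leaving out ACRE 2 and 4, the same markers had a higher mean in 1 of 12 (median -0.30), and without CMS7KO 3 and ACRE 3 in 11 of 12 (median 0.21). The part of the endothelial share in the level of Smad6 was not tested.

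**Figure D1:**
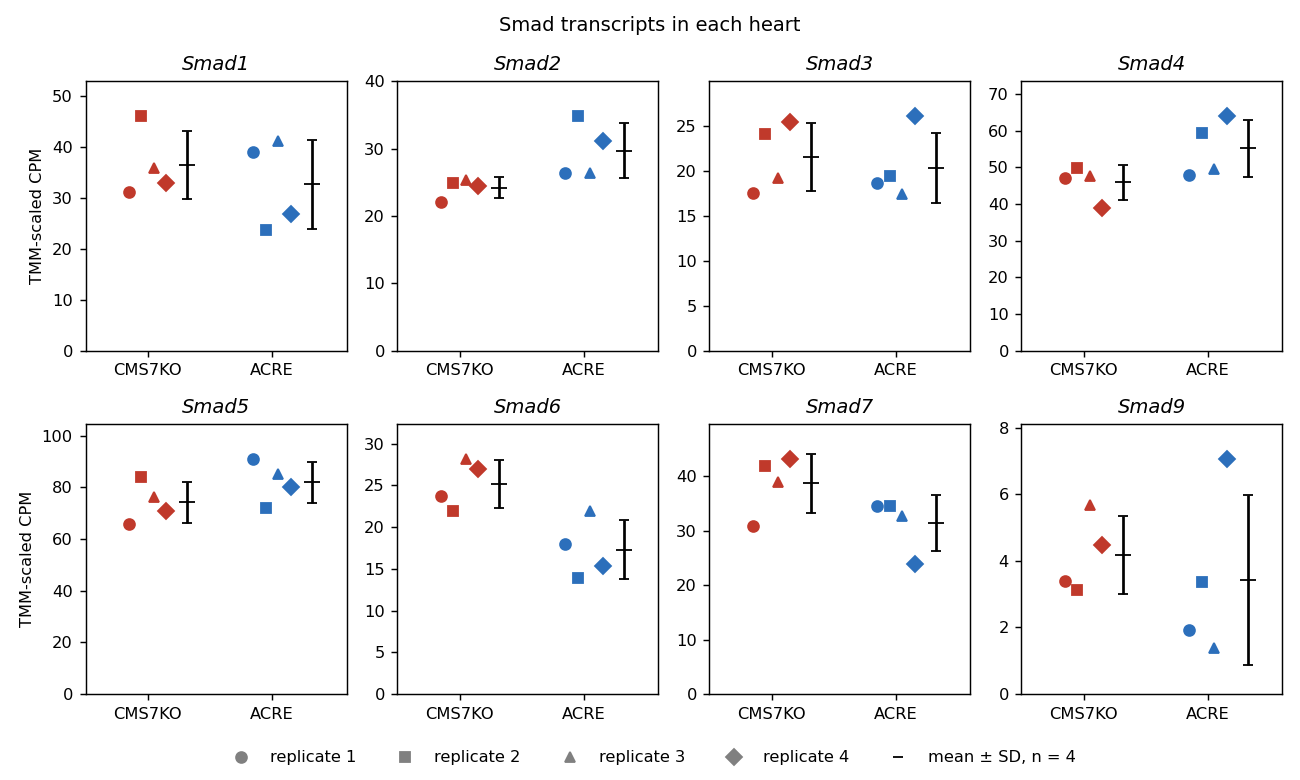
Level of each Smad gene in TMM-scaled CPM (vertical axes, each from 0) in 4 CMS7KO hearts (red, left) and 4 ACRE hearts (blue, right), with symbols for replicates and black bars for mean ± SD. The CMS7KO points of Smad2 lie below all ACRE points, those of Smad6 overlap ACRE only at 21.90 and 21.92 CPM, and the other 6 genes overlap.

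Smad2, a receptor Smad of the TGF-beta and activin branch, was the only member whose groups did not overlap in CPM. CMS7KO hearts 1 to 4 stood at 22.0, 24.96, 25.4 and 24.4 CPM, against 26.44, 34.8, 26.44 and 31.1 CPM in ACRE. ACRE 1 and 3 lay close above the CMS7KO range, and ACRE 2 and 4 lay well above it. ACRE 2 and 4 also had the lowest TMM scaling factors, 0.868 and 0.803, which raise their CPM. The separation depends on these factors. Of all reads in genes, Smad2 took a smaller part in ACRE 4 (322 of 12920435) than in CMS7KO 2 (481 of 17147942). Its share of the summed Smad level per kilobase, free of scaling, was 5.07% to 5.40% in CMS7KO and 5.81% to 7.99% in ACRE. The log2 fold change was -0.29 (SE 0.15, edgeR adjusted p = 0.374). All 4 CMS7KO libraries lay below all 4 ACRE libraries for 4.18% of genes and above them for 5.41%, so 1 member of 8 in this pattern is not a result about the family. Without ACRE 2 and 4 the log2 fold change was -0.13 (adjusted p = 0.809). The SD over 4 hearts was 1.51 CPM in CMS7KO and 4.05 CPM in ACRE.

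Smad3, which shares the branch with Smad2, showed no such separation. It stood at 17.5, 24.1, 19.1 and 25.4 CPM in CMS7KO hearts 1 to 4 and at 18.6, 19.4, 17.4 and 26.1 CPM in ACRE hearts 1 to 4. The groups spanned nearly the same range, and the highest level of each group was in replicate 4. The log2 fold change of 0.09 (edgeR adjusted p = 0.843, SE 0.19) was -0.02 without ACRE 3, -0.03 without CMS7KO 2 and -0.00073 without CMS7KO 4, so its sign rests on these libraries. It was 0.26 without ACRE 2 and 4.

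Smad4, the common partner, had the highest level per length and stood at 47.2, 49.9, 47.6 and 39.0 CPM in CMS7KO hearts, against 47.8, 59.4, 49.5 and 63.9 CPM in ACRE. ACRE 1 and 3 fell within the CMS7KO range, and ACRE 2 and 4 stood above it. The log2 fold change was -0.26 (SE 0.16, edgeR adjusted p = 0.422). Without ACRE 2 and 4 it was -0.09 (adjusted p = 0.873). In CPM, Smad2 and Smad4 thus had their 2 highest levels in the same 2 ACRE hearts. These hearts also held the highest summed levels of cardiomyocyte markers, 73362 and 96390 CPM. Their low TMM scaling factors, 0.868 and 0.803, raise each of these levels. Of all reads in genes, Smad4 took a smaller part in ACRE 4 (662 of 12920435) than in CMS7KO 2 (962 of 17147942). Its share of the summed Smad level per kilobase, free of scaling, was still highest in ACRE 2 and 4, at 32.3% and 33.2%. The part of those markers in either gene was not tested.

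In the BMP branch, Smad5 was the most abundant receptor Smad. It stood at 65.6, 84.2, 76.4 and 70.99 CPM in CMS7KO hearts and at 90.9, 72.2, 85.04 and 80.03 CPM in ACRE hearts. The groups overlapped over most of their range, and the difference on the log2 scale was -0.14 (SE 0.15, edgeR adjusted p = 0.650), or -0.25 without ACRE 2 and 4. Its 95% interval, 0.714-fold to 1.149-fold, was among the narrowest of the family.

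Smad1 divided the ACRE hearts rather than the genotypes. CMS7KO hearts stood at 31.2, 46.1, 35.8 and 33.0 CPM, while ACRE 1 and 3 stood at 38.96 and 41.2 and ACRE 2 and 4 at 23.7 and 26.8 CPM. The 2 low ACRE hearts were those with the lowest endothelial sums. The log2 fold change of 0.16 (edgeR adjusted p = 0.737, SE 0.22) turned to -0.14 (adjusted p = 0.830) without ACRE 2 and 4 and to -0.00065 without ACRE 2 alone. Without CMS7KO 3 and ACRE 3 it was 0.30.

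Smad9, also called Smad8, was scarce, with 47, 60, 90 and 60 reads in CMS7KO hearts and 33, 50, 22 and 73 reads in ACRE hearts. The 22 reads of ACRE 3 have an exact Poisson 95% interval of 13.8 to 33.3 reads, which covers counting error only. In CPM the levels were 3.41, 3.11, 5.69 and 4.48 in CMS7KO and 1.93, 3.35, 1.38 and 7.05 in ACRE. ACRE 4 was the highest heart of all and ACRE 3 the lowest, a range within controls that enclosed every CMS7KO heart. The log2 fold change of 0.30 (edgeR adjusted p = 0.756, SE 0.45) had the widest interval of the family, 0.614-fold to 2.47-fold. Without ACRE 2 and 4 it was 1.27 (adjusted p = 0.175). It was 0.16 without ACRE 1, 0.47 without ACRE 2, -0.03 without ACRE 3, 0.86 without ACRE 4 and -0.03 without CMS7KO 3 and ACRE 3. With all 8 hearts limma voom gave 0.62 (adjusted p = 0.507).

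Across the family, 0 of 8 members passed an adjusted p of 0.05 in edgeR, where 6 of 16780 genes (0.0358%) did. DESeq2 called 0 members where it called 2.88% of all genes, limma voom called 0 where it called 0.0298%, and 1 member had an unadjusted p under 0.05 in edgeR. The direction was higher in CMS7KO for 5 members and lower for 3, and 49.4% of all genes had a positive log2 fold change. The median size of the log2 fold change, sign ignored, was 0.28 over the members and 0.30 over all genes. A p above the threshold does not show equal levels, and the intervals of all members but Smad9 and Smad6 lay between 0.643-fold and 1.62-fold.

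**Figure D2:**
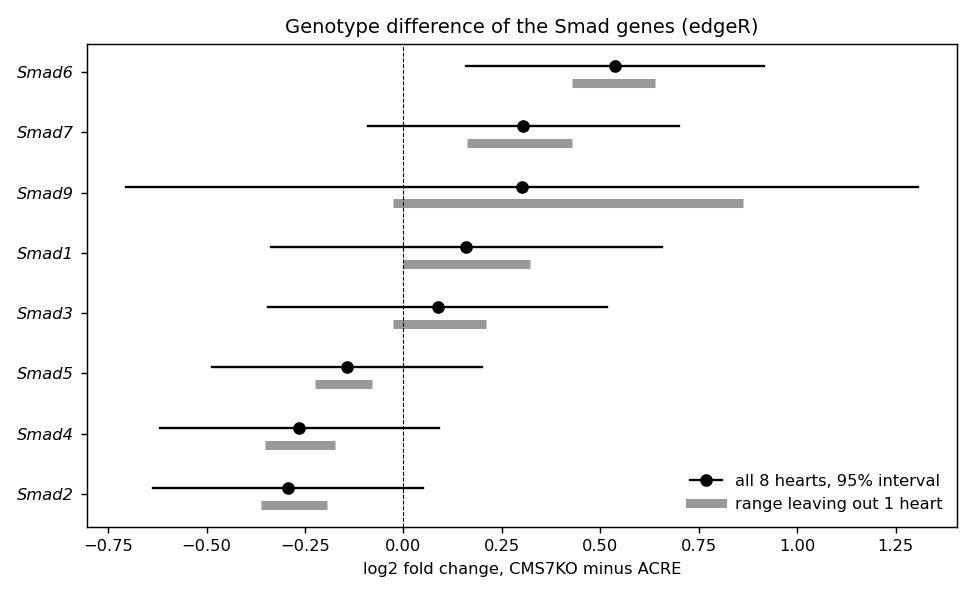
Log2 fold change of each Smad gene, CMS7KO minus ACRE (horizontal axis), with all 8 hearts (black point and 95% interval, without correction for multiple genes) and the range when any 1 heart is left out (grey bar). Smad6 lies highest at 0.54 and Smad2 lowest at -0.29, and the grey bars of Smad3 and Smad9 cross 0 while that of Smad1 ends at -0.00065.

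The genotype difference was also set side by side for the sex labels, with 2 hearts per genotype and label. Smad7 had the largest gap between the labels of the 8 members, with a log2 fold change of 0.53 between female-labelled hearts and 0.08 between male-labelled hearts. The difference between these effects was 0.46 (SE 0.35, edgeR adjusted p = 0.99995). Smad6 had 0.56 between female-labelled and 0.51 between male-labelled hearts. The interaction called 0 of 16780 genes in edgeR (0%; 178 at an unadjusted p under 0.05), 3 in DESeq2, 0 in limma voom and 8 without a filter, and none of these calls was a Smad gene. Its unadjusted p was under 0.05 for 0 of the 8 members. Replicate 3 of each genotype did not match its label, so these values describe labels and not sexes. By the label itself, female minus male, Smad9 had the largest log2 fold change, 0.65 (SE 0.45, adjusted p = 0.99996), and 0 members were called. The label called 0 genes in edgeR (207 at an unadjusted p under 0.05), 1 in DESeq2, 0 in limma voom and 70 without a filter. Without CMS7KO 3 and ACRE 3 it called 13 genes in edgeR (677 at an unadjusted p under 0.05), of which 0 were Smad genes, with 1 Smad gene at an unadjusted p under 0.05.

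Levels of different genes were compared per kilobase of the gene length that the table lists, as CPM per kilobase (RPKM). Over all 8 hearts Smad4 averaged 13.6 ± 2.08 RPKM (SD), Smad5 10.5 ± 1.13, Smad7 7.76 ± 1.38, Smad6 6.62 ± 1.61, Smad1 5.52 ± 1.19, Smad3 3.78 ± 0.653, Smad2 3.07 ± 0.464 and Smad9 0.708 ± 0.350. Smad4 exceeded Smad5, Smad5 exceeded Smad7, and Smad2 exceeded Smad9 in 8 of 8 hearts, although Smad5 over Smad7 came down to a ratio of 1.003 in 1 heart. The other neighbours in this order changed places between hearts. Smad7 exceeded Smad6 in 6 hearts, Smad6 exceeded Smad1 in 6, Smad1 exceeded Smad3 in 7 and Smad3 exceeded Smad2 in 7. Both inhibitory Smads thus stood above both receptor Smads of the TGF-beta branch in mean level per length. For Smad6 this order rests on the listed lengths, 8781 bases for Smad2 and 3205 for Smad6. In CPM the means of Smad6 and Smad2 were 17.3 and 29.7 in ACRE, and 25.2 and 24.2 in CMS7KO. Smad7 stood above Smad2 and Smad3 in mean CPM in each genotype as well.

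The make-up of the Smad pool, as shares of the summed RPKM of the 8 genes, does not depend on scaling between libraries. Smad6 and Smad7 together made up 30.2%, 28.7%, 32.4% and 34.9% of the pool in CMS7KO hearts 1 to 4, against 25.8%, 24.2%, 27.1% and 19.4% in ACRE hearts. The groups did not overlap in this share, with means of 31.6 ± 2.67% in CMS7KO and 24.1 ± 3.37% in ACRE (SD, n = 4 each). No test was made of it, because the family was chosen with results of these data known and Smad6 and Smad7 are the members with the largest positive differences among the well-counted genes.

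The summed Smad level itself was 52.1 ± 3.81 RPKM in CMS7KO and 51.2 ± 1.09 RPKM in ACRE. The means differed by 0.890 RPKM, less than the SD of either group. Smad4 had 23.8 ± 2.70% of the pool in CMS7KO and 29.1 ± 4.25% in ACRE. Smad5 had 19.2 ± 0.747% in CMS7KO and 21.6 ± 1.82% in ACRE. The receptor Smads of the BMP branch together took 30.4% to 34.4% in CMS7KO and 28.5% to 36.7% in ACRE. Those of the TGF-beta branch took 11.8% to 14.3% in CMS7KO and 11.9% to 15.9% in ACRE.

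**Figure D3:**
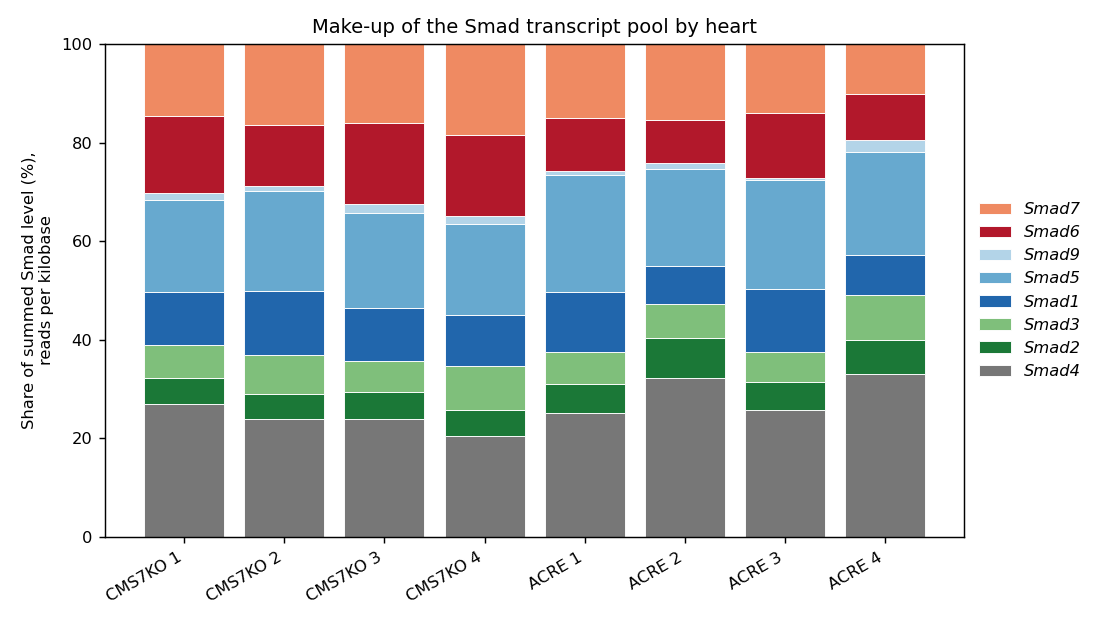
Share of each Smad gene in the summed level per kilobase (vertical axis, percent) for CMS7KO hearts 1 to 4 (left) and ACRE hearts 1 to 4 (right). The red and orange segments at the top, Smad6 and Smad7, add up to 28.7% to 34.9% in CMS7KO and 19.4% to 27.1% in ACRE.

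Ratios of members within a heart are likewise free of scaling between libraries. Per length, Smad7 stood at 2.73, 3.26, 2.98 and 3.43 times Smad2 in CMS7KO hearts and at 2.54, 1.92, 2.40 and 1.496 times Smad2 in ACRE hearts. All CMS7KO ratios lay above all ACRE ratios, although neither gene passed the test. Smad2, the divisor, by itself already lay lower in CPM in all CMS7KO hearts than in all ACRE hearts. Not all pairs of members were compared, so this separation is not a result about the family. The ratio of Smad7 to Smad6 was 0.926 to 1.36 in CMS7KO and 1.06 to 1.75 in ACRE, with Smad7 below Smad6 in CMS7KO 1 and 3 and above it in the other 6 hearts. The ratio of Smad3 to Smad2 was 1.41 ± 0.216 in CMS7KO and 1.09 ± 0.185 in ACRE, with overlapping ranges. These ratios are descriptions without a test.

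Members differed in how far apart their profiles lay. The distance between a pair of members was taken as the root mean square difference of their log2 CPM, each centred over the 8 hearts. Smad2 and Smad4 were the closest pair at 0.13, followed by Smad2 and Smad5 at 0.22 and Smad4 and Smad5 at 0.23. Smad1 and Smad7 stood at 0.281 from each other, and so did Smad6 and Smad7. The farthest pair was Smad1 and Smad9 at 0.88. Part of each distance is counting error, most of all for Smad9. The distance also grows with a gene's own spread, with an SD of log2 CPM of 0.16 for Smad5 and 0.74 for Smad9. A small distance therefore does not show that 2 genes rose and fell together. In ACRE 2, for example, Smad2 stood 0.38 above its mean while Smad5 was at -0.11.

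**Figure D4:**
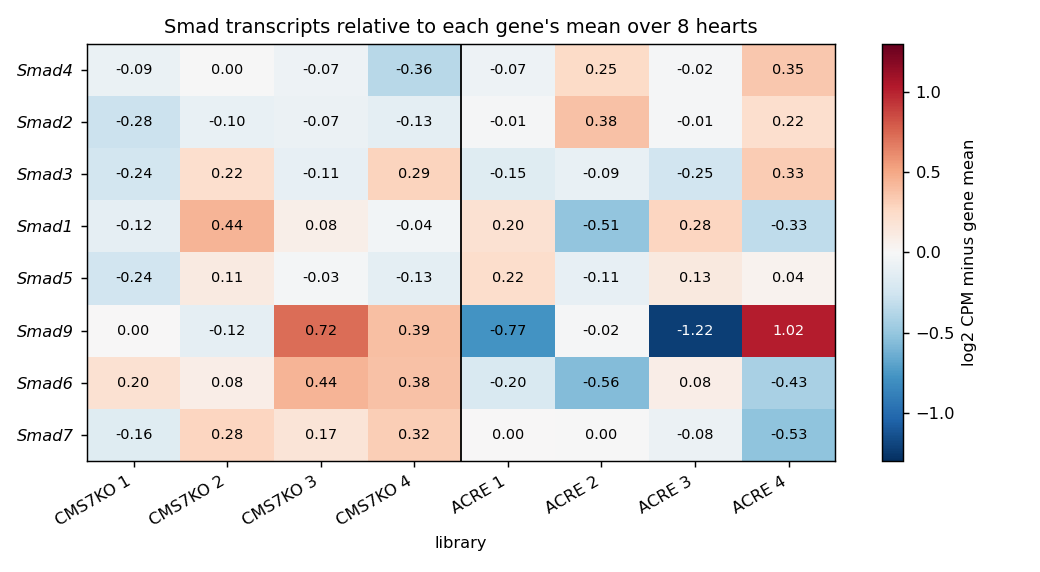
Log2 CPM of each Smad gene minus its mean over 8 hearts (colour and printed value), with CMS7KO hearts left and ACRE hearts right of the line. ACRE 2 and ACRE 4 are high in Smad4 and Smad2 and low in Smad1 and Smad6, and Smad9 spans -1.22 in ACRE 3 to 1.02 in ACRE 4.

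Other genes with the most similar profile over the 8 hearts were found by the same distance. For Smad7 they were Trpm4 (0.07), which encodes a calcium-activated cation channel, Dock10 (0.08) and Crlf3 (0.09). For Smad6 they were Rnf207 (0.10), Cenpx (0.10) and Adgrl1 (0.11), an adhesion receptor of the latrophilin family. For Smad1 they were Map3k12 (0.06), Arsa (0.06), which encodes arylsulfatase A, and Smox (0.07), spermine oxidase. For Smad2 they were Gna13 (0.04), Pcgf3 (0.05) and Eif4ebp2 (0.05), and for Smad4 Cog2 (0.05), 1810013L24Rik (0.05) and Bod1l (0.06). Smad5 was closest to Braf (0.05), Slc12a2 (0.06) and Trib2 (0.06), and Smad3 to Zfp316 (0.09), B4galt5 (0.09) and Socs5 (0.10). Smad9 was farther from its nearest genes, Spata6l (0.25), Cyp51 (0.29) and Irx3 (0.34). The median distance from Smad7 over 8432 candidate genes was 0.43, and that from Smad6 over 6364 candidates was 0.54.

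By the coordinates that the table gives, whose build is not named in it, Smad3 (ENSMUSG00000032402, 63554049 to 63665276) and Smad6 (ENSMUSG00000036867, 63860358 to 63929341) lie on the minus strand of chromosome 9, with 195 kb between them. Smad4 (ENSMUSG00000024515, 73772080 to 73836851), Smad7 (ENSMUSG00000025880, 75500600 to 75529006) and Smad2 (ENSMUSG00000024563, 76374651 to 76444034) lie on chromosome 18. Smad1 (ENSMUSG00000031681, 80065024 to 80126147) is on chromosome 8, Smad5 (ENSMUSG00000021540, 56850823 to 56890190) on chromosome 13 and Smad9 (ENSMUSG00000027796, 54663003 to 54708678) on chromosome 3. Within Smad4 the table lists the pseudogene Gm50126, with at most 1 read per heart, and within Smad5 it lists 3 small RNAs, with at most 2. Almost no reads were thus counted for these overlapping genes. Whether reads in the overlaps were left out of the counts of Smad4 or Smad5 cannot be seen here.

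Receptors that phosphorylate Smads or present ligand to them included 11 tested genes, of which 4 had a higher and 7 a lower mean in CMS7KO, and 0 passed the threshold (median log2 fold change -0.07, against -0.01 over all genes). The co-receptor gene Tgfbr3, betaglycan, stood at 39.8 ± 4.52 CPM in CMS7KO and 59.98 ± 18.1 CPM in ACRE (SD, n = 4 each; adjusted p = 0.307, edgeR here and for the genes below). Bmpr1a, a type I BMP receptor, stood at 40.3 ± 3.52 and Bmpr2, a type II receptor, at 92.5 ± 7.19 CPM in CMS7KO, against 76.8 ± 44.2 and 109.8 ± 13.8 CPM in ACRE (adjusted p = 0.312 and 0.450). Acvr2a, an activin receptor, stood at 26.3 ± 2.11 CPM in CMS7KO and 30.9 ± 6.20 CPM in ACRE (adjusted p = 0.524). In the fit without ACRE 2 and 4, log2 fold changes were -0.18 for Tgfbr3 (-0.59 with all hearts), 0.06 for Bmpr1a (-0.93), -0.11 for Bmpr2 (-0.25) and 0.01 for Acvr2a (-0.23). The list median was -0.03 without CMS7KO 3 and ACRE 3.

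Ubiquitin ligases and deubiquitinases control the turnover of Smads and of their receptors. Of 17 tested, 7 had a higher and 10 a lower mean in CMS7KO, and 0 passed the threshold (median log2 fold change -0.17). The deubiquitinases Usp15 and Usp9x stood at 51.6 ± 2.18 and 47.0 ± 1.81 CPM in CMS7KO, against 78.1 ± 28.7 and 82.2 ± 44.0 CPM in ACRE (SD, n = 4 each; adjusted p = 0.313 and 0.323). The ligase Rlim stood at 28.6 ± 5.90 CPM in CMS7KO and 36.01 ± 3.16 CPM in ACRE (adjusted p = 0.329). Rnf165, a ligase also called Arkadia-like, stood at 1.87 ± 0.565 CPM in CMS7KO and 0.9998 ± 0.771 CPM in ACRE (adjusted p = 0.328). The list median was 0.01 without ACRE 2 and 4, with 9 higher and 8 lower, and the log2 fold change was -0.07 for Usp15 (-0.60 with all hearts) and 0.08 for Usp9x (-0.80).

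Among 23 nuclear partners of Smads, 10 had a higher and 13 a lower mean in CMS7KO, and 0 passed the threshold (median log2 fold change -0.08). The corepressors Tgif1 and Skil, both also known targets of the TGF-beta branch, stood at 19.1 ± 7.06 and 56.3 ± 9.46 CPM in CMS7KO, against 10.1 ± 1.33 and 41.2 ± 1.21 CPM in ACRE (SD, n = 4 each; adjusted p = 0.232 and 0.284). All 4 CMS7KO hearts lay above all 4 ACRE hearts for 3 of the 23, beside 5.41% of all genes, and below them for 1, beside 4.18%. The 3 were Tgif1, Skil and the transcription factor gene Runx1, which stood at 7.48 ± 0.648 CPM in CMS7KO and 5.30 ± 0.971 CPM in ACRE (adjusted p = 0.327). The deacetylase Hdac1 stood at 43.7 ± 5.43 CPM in CMS7KO and 32.5 ± 6.61 CPM in ACRE (adjusted p = 0.319). The list median was 0.07 without ACRE 2 and 4, with 13 higher and 10 lower, and -0.02 without CMS7KO 3 and ACRE 3.

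Anchors, phosphatases and nuclear transport factors of Smads formed a list of 20. The list included Yap1, which is also counted among the nuclear partners above. Of the 20, 4 had a higher and 16 a lower mean in CMS7KO, and 0 passed the threshold (median log2 fold change -0.17). Dab2, an endocytic adaptor, stood at 127.5 ± 7.81 CPM in CMS7KO and 82.4 ± 8.39 CPM in ACRE (SD, n = 4 each; log2 fold change 0.63, adjusted p = 0.199), with the groups apart. Dab2 is also expressed by macrophages. The summed level of 12 macrophage markers was 990 to 1199 CPM in CMS7KO and 514 to 938 CPM in ACRE, with 10 of 12 higher in the mean, 0 past the threshold and 0 at 0 reads in any library. The part of macrophages in the level of Dab2 was not tested. Zfyve9, which encodes SARA, an anchor that presents Smad2 and Smad3 to the receptor, stood at 23.2 ± 2.35 CPM in CMS7KO and 36.3 ± 10.6 CPM in ACRE (adjusted p = 0.282). All 4 CMS7KO hearts lay below all 4 ACRE hearts for 3 of the 20, Zfyve9, Nup153 and Strap, beside 4.18% of all genes. They lay above them for 1, Dab2, beside 5.41%. The nuclear pore gene Nup153 stood at 34.0 ± 2.55 CPM in CMS7KO and 47.7 ± 7.81 CPM in ACRE (adjusted p = 0.278). Strap, whose protein binds Smad7 and the receptors, stood at 73.97 ± 5.95 CPM in CMS7KO and 103.3 ± 26.7 CPM in ACRE (adjusted p = 0.312). The list median was 0.02 without ACRE 2 and 4, with 11 higher and 9 lower. In that fit the log2 fold change was -0.28 for Nup153 (-0.48 with all hearts), -0.23 for Zfyve9 (-0.64) and -0.19 for Strap (-0.48).

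Known targets of each branch were listed as well, but the activity of the Smads themselves was not measured. Of 12 targets of the TGF-beta branch, 11 had a higher and 1 a lower mean in CMS7KO (median log2 fold change 0.57), and 0 passed the threshold. An unadjusted p under 0.05 was found for 8 of them, beside 15.3% of all genes, and the CMS7KO hearts all lay above the ACRE hearts for 7, beside 5.41% of all genes. The list was drawn up with earlier results of these data known, so this is a description. Pmepa1, a feedback inhibitor that binds Smad2 and Smad3, had the smallest p of the list, at 95.8 ± 32.7 CPM in CMS7KO and 46.3 ± 4.87 CPM in ACRE (SD, n = 4 each; edgeR adjusted p = 0.183). Ltbp2, which encodes a latent TGF-beta binding protein, spanned 48.9 to 213.5 CPM in CMS7KO and 33.8 to 59.8 CPM in ACRE (adjusted p = 0.199). Tgfb1, the ligand gene, stood at 64.1 ± 4.05 CPM in CMS7KO and 39.4 ± 9.62 CPM in ACRE (adjusted p = 0.218). Snai1, a transcription factor gene, stood at 8.27 ± 1.75 CPM in CMS7KO and 4.37 ± 0.849 CPM in ACRE (adjusted p = 0.225). The groups were apart for Pmepa1, Tgfb1 and Snai1 and overlapped for Ltbp2. Skil and Tgif1 are also in this list. The fibroblast markers were also higher in the mean: 12 of 12 were so in CMS7KO, 0 passed the threshold and 0 were at 0 reads, with a summed level of 4628 to 8755 CPM in CMS7KO and 3772 to 4394 CPM in ACRE. The macrophage markers, whose sums stand beside Dab2, had a median log2 fold change of 0.73, and the fibroblast markers one of 0.59. Of 12 each, 9 macrophage and 6 fibroblast markers had an unadjusted p under 0.05, and 8 and 3 were wholly above ACRE. Col1a1 is both a target and a fibroblast marker, and the part of either cell type in the target genes was not tested. Without ACRE 2 and 4 the target median was 0.59, the log2 fold change of Tgfb1 was 0.42 (0.70 with all hearts), and 3 of 12 macrophage markers passed the threshold, beside 175 of 17883 genes.

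Of 9 targets of the BMP branch, 7 had a higher and 2 a lower mean in CMS7KO (median log2 fold change 0.28), and 0 passed the threshold. Id2 and Id3, inhibitors of basic helix-loop-helix factors, stood at 17.8 ± 3.99 and 120.3 ± 13.5 CPM in CMS7KO, against 9.77 ± 2.52 and 75.8 ± 30.3 CPM in ACRE (SD, n = 4 each; edgeR adjusted p = 0.222 and 0.315). The groups were apart for Id2 and overlapped for Id3. All 4 CMS7KO hearts lay above all 4 ACRE hearts for 1 of the 9, Id2, beside 5.41% of all genes. They lay below them for 0, beside 4.18%. Atoh8, a transcription factor gene, stood at 22.98 ± 5.61 CPM in CMS7KO and 16.7 ± 4.15 CPM in ACRE (adjusted p = 0.362). Smim3, which encodes a small membrane protein, stood at 5.85 ± 1.47 CPM in CMS7KO and 9.09 ± 3.18 CPM in ACRE (adjusted p = 0.356). The list median was 0.02 without ACRE 2 and 4, with 5 higher and 4 lower, and the log2 fold change was 0.25 for Id3 (0.67 with all hearts), -0.13 for Smim3 (-0.63) and 0.32 for Atoh8 (0.48). Without CMS7KO 3 and ACRE 3 it was also 0.32 for Atoh8. The 10 smooth muscle and pericyte markers, cells that also respond to BMP and TGF-beta, had 8 higher and 2 lower means in CMS7KO, with 0 past the threshold and 0 at 0 reads, and summed to 1838 to 2132 CPM in CMS7KO and 1878 to 2274 CPM in ACRE. Their median log2 fold change was 0.04, against -0.20 without ACRE 2 and 4 and 0.10 without CMS7KO 3 and ACRE 3.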

How the data were processed

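The authors deposited 1 table of whole-number counts of reads per gene, 1 column per heart, not normalized, with a gene length column in bases (other annotation value) from the deposited file. Per the submitters' processing notes, which assign no roles, the tools were HTSeq 0.6.1, Cufflinks 2.1.1, TopHat2 2.0 and CASAVA, with GRCm38.p6 and mm10 as builds. The sources used here give neither the strand setting nor the annotation. Of the 8 members, 0 had the start given by GENCODE mouse release 21 on GRCm38, so the table's coordinates are printed as listed and sequences carry their own GRCm38 coordinates.

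From these counts, filterByExpr of edgeR, grouped by genotype with sex label, left 16780 genes. TMM scaling gave library factors of 0.803 in ACRE 4, 0.868 in ACRE 2 and 0.991 to 1.13 in the other libraries. Genotype, as CMS7KO minus ACRE, was compared with edgeR 4.0.16 (R 4.3.3, robust quasi-likelihood F test, sex label as covariate, 5 residual degrees of freedom). P values were adjusted by Benjamini-Hochberg over all genes tested, at 0.05. SE was the log2 fold change over the square root of F. Alternatives used DESeq2 1.42.0 and limma 3.58.1. No 2 libraries agreed within sampling noise (smallest chi-square per degree of freedom 17.5). Scripts were tested on simulated data. The profile distance used log2 CPM with a prior count of 2 and protein-coding genes averaging at least 5 CPM, with an SD of at least 0.75 of the member's.

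Besides the 8 members, the text names the 4 genes with the smallest p per pathway list and the 3 nearest profiles per member. Members and lists were chosen with earlier results of these data known.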

Additional observations from a re-analysis of the deposited data

How the results depend on the processing

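No setting called a Smad gene: the number past the threshold was 0 under all 17 alternatives for genotype, and under those run for the sex label and the interaction. Smad6 and Smad7 stayed higher and Smad2, Smad4 and Smad5 lower under all 17, at log2 fold changes of 0.33 to 0.64, 0.16 to 0.43, -0.37 to -0.13, -0.35 to -0.09 and -0.25 to -0.08. Leaving out 1 heart gave -0.00065 to 0.32 for Smad1, -0.02588 to 0.21 for Smad3 and -0.02692 to 0.86 for Smad9. Smad1 turned to -0.14 without ACRE 2 and 4, and Smad9 to -0.02532 without both libraries numbered 3. The cause was not tested. List values without these libraries, chosen after seeing the data, stand beside the lists.

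Counts over all genes, 3 higher and 3 lower in CMS7KO, moved more. They were 278 and 206 with DESeq2, 456 and 912 without a filter, 86 and 89 without ACRE 2 and 4, 0 and 1 without the libraries numbered 3, and 5 lower without the sex label. Leaving out 1 heart gave 0 to 10 higher and 0 to 7 lower genes (0 of both without CMS7KO 1, 2 or 3, with 2173, 1531 and 1487 genes at an unadjusted p under 0.05).

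The replicate block gave 1 higher and 2 lower genes, and 0.48 for Smad9. Same-numbered hearts did not all deviate together (correlations of -0.17, -0.19, 0.12 and 0.20), so the numbers were not taken as pairs. These correlations cannot show whether hearts shared a litter or a surgery day. With shares of reads in place of shares per length, the difference in share kept its sign for all 8 members. It was -3.27 in place of -5.23 percentage points for Smad4, 3.02 in place of 4.62 for Smad6, -1.99 in place of -1.32 for Smad2 and 0.466 in place of 0.282 for Smad3. Depth limits Smad9 most, at 22 to 90 reads per heart.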
